A study of Mus musculus with 8 samples.

Results

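The genes of the enzymes that remove methyl groups from lysine 9 of histone H3 (H3K9) were followed across 4 conditions of mouse embryonic stem cells (mESCs). The 9 genes were chosen by name: Kdm3a, Kdm3b and Jmjd1c of the KDM3 family, Kdm4a, Kdm4b, Kdm4c and Kdm4d of the KDM4 family, Kdm1a, which encodes LSD1, and Phf8. They are 9 of the 24062 genes counted, and all 9 passed the filter on low counts together with 15313 genes in all.

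H3K9 methylation is a balance between methyltransferases and these demethylases. KDM3 enzymes act on mono- and dimethylated H3K9. KDM4 enzymes act on di- and trimethylated H3K9, and KDM4A, KDM4B and KDM4C also act on methylated H3K36. Both families, and PHF8, are Jumonji C dioxygenases that need iron, oxygen and 2-oxoglutarate, whereas LSD1 is a flavin-dependent amine oxidase best known for acting on methylated H3K4. In mESCs several of these enzymes have been linked to the maintenance of pluripotency.

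Poly(A) RNA was sequenced from the #33-6 line of mESCs, in which Setdb1 can be deleted with 4-hydroxytamoxifen (4-OHT). All 8 libraries came from this 1 line, with 2 replicates per condition, so the undeleted conditional allele was also carried by the controls. WT mESCs were left untreated, and UNC0642-treated mESCs received 2 µM of UNC0642, a catalytic inhibitor of the H3K9 methyltransferases G9a and GLP, for 3 days. Setdb1 KO mESCs received 800 nM 4-OHT for 5 days, and UNC0642-treated Setdb1 KO mESCs are labelled as given 800 nM 4-OHT for 2 days followed by 2 µM UNC0642 for 3 days. SETDB1 is itself an H3K9 methyltransferase, so each treatment removes activity from the opposite side of the balance. The replicates are described as separate biological experiments, all on the same line.

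The total was between 11702590 and 26807807 counts per library, lowest in WT replicate 1 and in replicate 1 of UNC0642-treated Setdb1 KO mESCs. The 9 genes had at least 93 counts in every library except Kdm4d, which had between 0 and 44. Levels are given as CPM, counts per 1000000 counts of a library whose size was scaled by TMM, a normalization to the bulk of the features. The 9 mESC markers summed to between 4047 and 6469 CPM and the 8 fibroblast markers to between 6.60 and 24.0 CPM, so that the markers of the labelled cell type were present. Setdb1, the targeted gene, was at 169 and 127 CPM in WT replicates 1 and 2, 130.4 and 86.3 in UNC0642-treated, 47.3 and 51.0 in Setdb1 KO, and 61.1 and 34.1 CPM in UNC0642-treated Setdb1 KO mESCs. Both KO conditions were below all 4 libraries without 4-OHT. The count covers the whole gene, so transcript that remains after the deletion is included.

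Changes were tested with edgeR's quasi-likelihood test over 16245 genes and transposable element subfamilies, with Benjamini-Hochberg adjustment over all of them, in a fit without a replicate term. Since libraries with the same replicate number deviated together across genes, a second fit with a replicate block, which removes the difference between replicates 1 and 2 that all conditions share, is given where it changed a call. A gene was called at an adjusted p under 0.05. In the fit without the block Setdb1 had log2 fold changes over WT of -1.59 ± 0.44 (SE, adjusted p = 0.181) in Setdb1 KO and -1.64 ± 0.44 (adjusted p = 0.0746) in UNC0642-treated Setdb1 KO mESCs. The edgeR fit with the block gave -1.56 ± 0.27 (adjusted p = 0.0164) and -1.67 ± 0.28 (adjusted p = 0.00593), of which the first call was lost without replicate 1 of Setdb1 KO (adjusted p = 0.166) and the second without replicate 2 of UNC0642-treated Setdb1 KO mESCs (0.0764). The 3 comparisons with WT share the same 2 WT libraries.

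Length-scaled RNA levels, in CPM per kilobase of exon, differed among the 9 genes. In WT mESCs (n = 2) Kdm1a was at 55.8 ± 11.6 (SD) and Kdm4c at 54.7 ± 39.1, and these highest 2 did not differ beyond their spread. Kdm3a followed at 20.2 ± 1.5, Jmjd1c at 19.3 ± 6.98 and Kdm4a at 14.7 ± 1.48, with neighbours again within their spread. Kdm3b was at 9.71 ± 0.725, Kdm4b at 7.92 ± 3.78 and Phf8 at 5.92 ± 0.751, and of these Kdm4b overlapped both others. Kdm4d was last at 0.0315 ± 0.0446. By these lengths the order of the 6 highest genes was the same in all 4 conditions, and Kdm4b lay below Phf8 in the 3 treated conditions. Lengths were the union of all annotated exons, between 2861 bases for Kdm4d and 17822 for Jmjd1c. The order depends on the length used. With the longest transcript in its place, Jmjd1c stood above Kdm3a, Kdm3b above Kdm4a and Phf8 above Kdm4b in WT mESCs. Kdm3a then stood above Kdm4c and Jmjd1c, and Kdm4a above Kdm3b, in the combined condition.

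**Figure D1:**
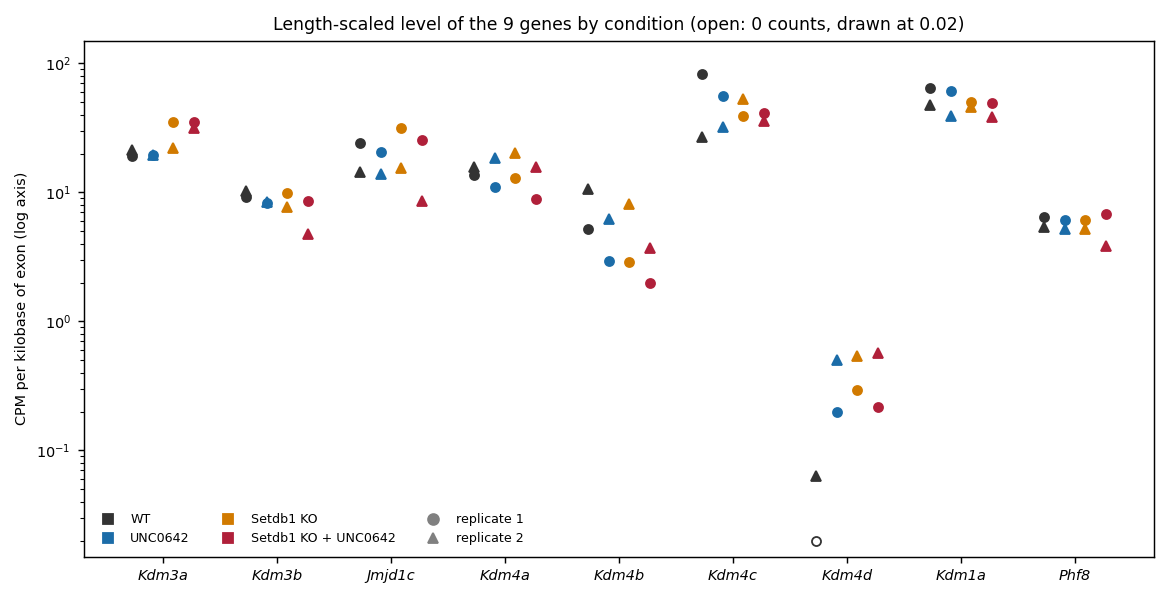
Length-scaled level (CPM per kilobase of exon, log axis) of each gene in the 8 libraries, with circles for replicate 1, triangles for replicate 2 and a colour for each condition. Kdm1a and Kdm4c are highest in WT mESCs, and Kdm4d, with 0 counts in WT replicate 1 drawn as an open circle at 0.02, is lowest in each condition.

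Without the block, none of the 9 genes was called in any comparison. Beside them, edgeR called 0.0% of all features in UNC0642-treated mESCs, 1.12% in Setdb1 KO and 4.11% in UNC0642-treated Setdb1 KO mESCs over WT. Only Kdm4d had an unadjusted edgeR p under 0.05 in each of these 3 comparisons, beside 545, 1414 and 2926 of the 16245 features. DESeq2 on the same 8 libraries called none of the 9 either, beside 120, 568 and 1518 features. With the block, 0 of 9 were called in UNC0642-treated mESCs (background 0.166%), 1 in Setdb1 KO (Kdm4d, background 4.3%) and 2 in UNC0642-treated Setdb1 KO mESCs (Kdm4d and Kdm4b, background 17.2%, of which 9.98% higher and 7.19% lower). The share of 2 in 9 is near this background. Kdm4d entered the tested set only through the treated libraries in which it was high, so its place in these counts gives no support to a change, and without it the counts were 0 and 1 (Kdm4b). The median log2 fold change of the 9 genes with the block was -0.13, -0.07 and -0.32 in the 3 comparisons, and that of all genes tested was -0.05, -0.07 and -0.08.

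**Figure D2:**
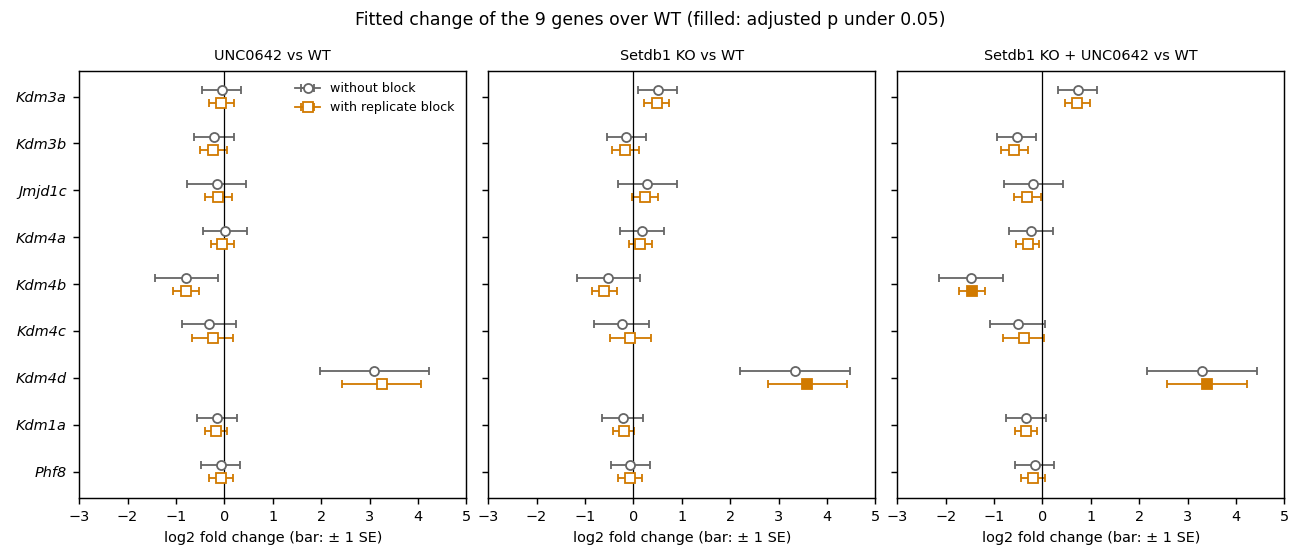
Log2 fold change over WT of the 9 genes in 3 comparisons from edgeR without (grey circles) and with (orange squares) the replicate block, with bars of 1 SE on either side. Filled symbols have an adjusted p under 0.05, which were Kdm4d (tested only through its treated libraries) in both Setdb1 KO conditions and Kdm4b in the combined one, all with the block.

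Kdm4d encodes the shortest KDM4 enzyme, which lacks the C-terminal reader domains of KDM4A to KDM4C and is known for its expression in testis. It lies on chr9:14462548-14500482 (GRCm38, GENCODE M21, minus strand), and its start is 135 bases from the start of Cwc15, a spliceosome gene that runs the other way. The bases between both starts and, for contrast, the 250 bases before the start of Kdm4a on chr4:118136957-118180043 (minus strand) are given because Kdm4d had the widest range of levels of the 9 genes. They come from RefSeq promoters on GRCm38.p6, 5′ to 3′ in the direction of the named gene, at chr9:14500483-14500616 and chr4:118180044-118180293 (both minus strand), with CpG dinucleotides in capitals.
Kdm4d: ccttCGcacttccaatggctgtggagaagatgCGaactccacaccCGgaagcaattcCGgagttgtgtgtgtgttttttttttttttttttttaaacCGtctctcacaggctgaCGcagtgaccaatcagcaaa
Kdm4a: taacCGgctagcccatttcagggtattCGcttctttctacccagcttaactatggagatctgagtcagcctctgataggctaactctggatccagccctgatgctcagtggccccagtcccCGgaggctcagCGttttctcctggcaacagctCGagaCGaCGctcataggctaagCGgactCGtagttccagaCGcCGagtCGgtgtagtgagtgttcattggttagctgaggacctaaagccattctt
The Kdm4d stretch holds 6 CpGs in 134 bases and the Kdm4a stretch 12 in 250. Over the full 250 bases before its start, which run into Cwc15, Kdm4d has 14, and the median of 32851 promoter windows of this length was 6.

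Kdm4d had 0 counts in WT replicate 1 and 5 in WT replicate 2. UNC0642-treated mESCs had 12 and 40 counts of it, Setdb1 KO mESCs had 20 and 28, and UNC0642-treated Setdb1 KO mESCs had 6 and 44. Every treated library thus had more Kdm4d counts than either WT library. Scaled, this was 0 and 0.180 CPM in WT, 0.564 and 1.44 in UNC0642-treated, 0.846 and 1.54 in Setdb1 KO, and 0.623 and 1.62 CPM in UNC0642-treated Setdb1 KO mESCs. The treated conditions did not overlap WT, overlapped each other, and in each of them replicate 2 was the higher. Both libraries of a treated condition lay beyond both WT libraries for 24.5% of all features in UNC0642-treated, 30.6% in Setdb1 KO and 43.3% in UNC0642-treated Setdb1 KO mESCs, and for 2, 2 and 4 of the 9 genes.

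Per total count and with replicates summed, Kdm4d was 8.35 times as high in UNC0642-treated as in WT mESCs (exact 95% interval 3.36 to 26.8), 8.18 times (3.27 to 26.3) in Setdb1 KO and 9.65 times (3.87 to 31.0) in UNC0642-treated Setdb1 KO mESCs. These intervals cover counting error only and not the difference between replicates. Kdm4d passed the filter on low counts only through its treated libraries, so the intervals describe the counts and are no test of a change. By the means of TMM-scaled CPM the ratios to WT were 11.1, 13.2 and 12.4 in the same order. WT replicate 1 alone, whose count of 0 allows up to 0.261 CPM (3 counts), was also set against replicate 1 of each treated condition. The observed values were 2.16 times this limit in UNC0642-treated, 3.24 times in Setdb1 KO and 2.38 times in UNC0642-treated Setdb1 KO mESCs. They rest on 12, 20 and 6 counts, whose own counting error is not included, so these ratios are not lower bounds. UNC0642-treated Setdb1 KO over Setdb1 KO mESCs gave a ratio of 1.18 (0.778 to 1.79) per total count and 0.938 by the means of TMM-scaled CPM. The direction thus depends on the scaling, and no further difference was read from these counts. By the labels these conditions differ in 4-OHT (2 against 5 days) as well as in the inhibitor.

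In the edgeR fit without the block Kdm4d had a log2 fold change of 3.10 ± 1.12 (SE, adjusted p = 1.0) with UNC0642, 3.34 ± 1.13 (adjusted p = 0.322) in Setdb1 KO and 3.30 ± 1.13 (adjusted p = 0.156) in UNC0642-treated Setdb1 KO mESCs. With the block edgeR gave 3.25 ± 0.82 (adjusted p = 0.253), 3.59 ± 0.82 (adjusted p = 0.0481) and 3.41 ± 0.83 (adjusted p = 0.0263). The latter 2 were under the threshold, but Kdm4d passed the filter on low counts only through its treated libraries, so these p-values are given as a description. The value in Setdb1 KO mESCs was no longer under the threshold when any 1 of the 8 libraries was left out (adjusted p up to 0.172). That in UNC0642-treated Setdb1 KO mESCs was not under it without WT replicate 2 (adjusted p = 0.0568), without either replicate of UNC0642-treated mESCs (0.0537 and 0.0627) and without either replicate of its own condition (0.0671 and 0.195, edgeR with the block). With a library left out without the block, the fitted log2 fold change ran from 2.23 to 7.36 with UNC0642, from 2.68 to 7.55 in Setdb1 KO and from 2.40 to 7.53 in UNC0642-treated Setdb1 KO mESCs, and with WT at 5 counts in all its size depends on the prior count.

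Cwc15, the head-to-head neighbour of Kdm4d, was not called in any comparison with WT. It was at 86.7 ± 27.8 CPM (SD, n = 2) in WT, 96.1 ± 36.8 in UNC0642-treated, 78.0 ± 33.1 in Setdb1 KO and 95.8 ± 13.6 in UNC0642-treated Setdb1 KO mESCs, and all 3 conditions overlapped WT. With the block its log2 fold changes over WT were 0.13 ± 0.24, -0.18 ± 0.24 and 0.19 ± 0.24 (edgeR, SE, smallest adjusted p = 0.618). Across the 8 libraries the tested genes most like Kdm4d by Pearson's r of log2 CPM were Tada1 (r = 0.965), Csf3r (0.954) and 2810047C21Rik1 (0.949). These r values are a description of 8 libraries that share their depth and replicate differences, and Csf3r was at 0.735 CPM or less throughout.

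Kdm4b encodes a KDM4 demethylase known to be induced under low oxygen. It lies on chr17:56326062-56402870 (plus strand), and no other annotated gene overlaps it. Kdm4b was at 25.7 and 51.8 CPM in WT, 14.4 and 30.6 in UNC0642-treated, 14.1 and 40.0 in Setdb1 KO, and 9.65 and 18.2 CPM in UNC0642-treated Setdb1 KO mESCs. Replicate 2 was the higher in all 4 conditions, by up to 2.83-fold. The combined condition lay below both WT libraries, and the other two treated conditions overlapped WT.

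Within a replicate number the Kdm4b changes were alike: the log2 ratio of UNC0642-treated Setdb1 KO to WT was -1.41 in replicate 1 and -1.51 in replicate 2, and that of UNC0642-treated to WT was -0.83 and -0.76. In Setdb1 KO mESCs the log2 ratios were -0.86 and -0.37. The edgeR log2 fold change in UNC0642-treated Setdb1 KO over WT mESCs was -1.47 ± 0.66 (SE, adjusted p = 0.280) without the block and -1.46 ± 0.27 (adjusted p = 0.0093) with it. Kdm4b thus fell in the blocked fit, and this call was lost only without replicate 2 of UNC0642-treated Setdb1 KO mESCs (-1.30, adjusted p = 0.105). In UNC0642-treated and Setdb1 KO mESCs the blocked values were -0.80 ± 0.26 (adjusted p = 0.422) and -0.60 ± 0.26 (adjusted p = 0.274, edgeR), which did not pass.

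**Figure D3:**
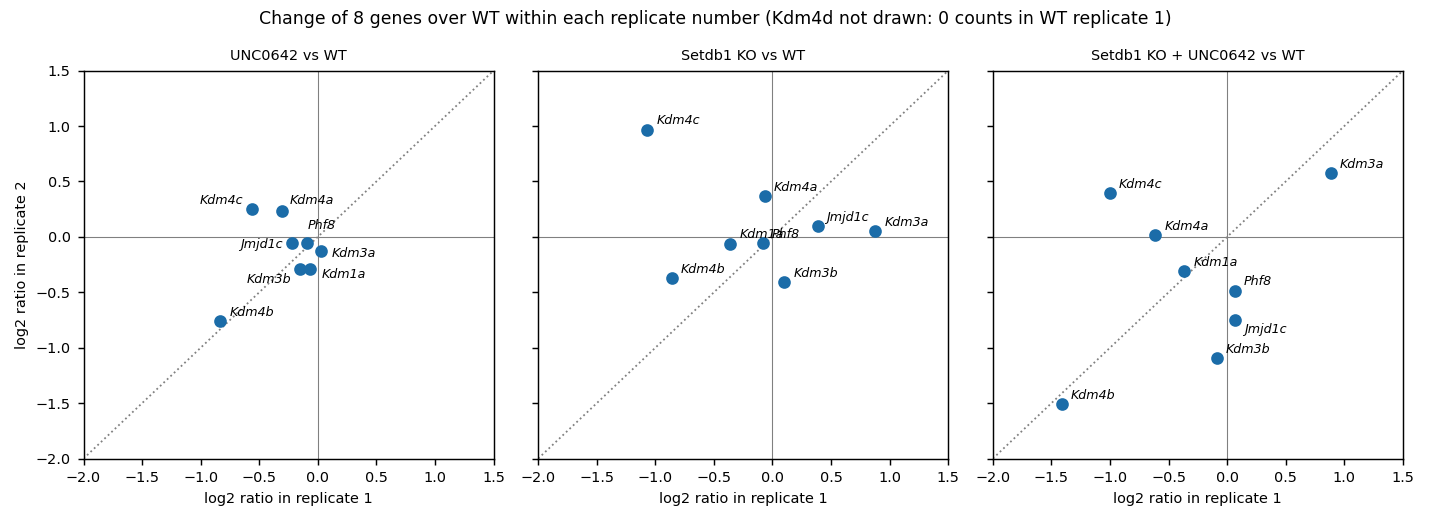
Log2 ratio of CPM to WT within replicate 1 (x axis) and within replicate 2 (y axis) for 8 genes in 3 comparisons, with a dotted line of equal change. Kdm4b lies close to that line in UNC0642-treated and in UNC0642-treated Setdb1 KO mESCs (-1.41 and -1.51 in the latter). Kdm4c and Kdm4a each moved in opposite directions in the 2 replicates in all 3 comparisons. Kdm4a moved by only 0.014 in replicate 2 of UNC0642-treated Setdb1 KO mESCs. Kdm4d is not drawn because WT replicate 1 had 0 counts.

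In the combined condition most listed genes that respond to low oxygen fell, as Kdm4b did in the blocked fit. The list was chosen with earlier results of these data known, so its counts are a description and no test. Of 15 listed, 14 were tested, and with the block 10 fell and 0 rose in UNC0642-treated Setdb1 KO over WT mESCs, with a median log2 fold change of -2.16, where 7.19% of all features were called lower. They included Ldha (lactate dehydrogenase, -2.51 ± 0.39, SE, edgeR adjusted p = 0.00438), Egln3 (an oxygen-sensing prolyl hydroxylase, -4.03 ± 0.86, adjusted p = 0.0171) and Slc2a1 (a glucose transporter, -1.70 ± 0.41, adjusted p = 0.0261). Without the block Egln3 and Ldha alone were called. With the block the 10 became 2 without replicate 1 and 3 without replicate 2 of UNC0642-treated Setdb1 KO mESCs, 6 without WT replicate 1, and 11 or 12 without any other library. The summed level of all 15 listed genes was 7592 and 6012 CPM in WT and 5189 and 4122 in UNC0642-treated mESCs. It was 3122 and 7079 in Setdb1 KO, and 1717 and 2550.2 CPM in UNC0642-treated Setdb1 KO mESCs. The combined condition was the lowest in both replicates, and the part of these genes' shift in the Kdm4b value was not tested.

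Kdm3a, a KDM3 demethylase that is likewise known as oxygen-regulated, had higher rather than lower means in both Setdb1 KO conditions, without a call. The gene is on chr6:71588972-71632990 (minus strand). It was at 158 and 175 CPM in WT, 160.3 and 159.8 in UNC0642-treated, 289.9 and 181 in Setdb1 KO, and 291 and 260.4 CPM in UNC0642-treated Setdb1 KO mESCs. Both Setdb1 KO conditions lay above the 4 libraries without 4-OHT, narrowly so for replicate 2 of Setdb1 KO mESCs. Of all features, 17.5% lay above both WT libraries in Setdb1 KO and 22.3% in UNC0642-treated Setdb1 KO mESCs. The means differed from WT by 1.66-fold in UNC0642-treated Setdb1 KO mESCs, with log2 ratios of 0.89 and 0.57 in replicates 1 and 2. The edgeR log2 fold change was 0.73 ± 0.40 (SE, adjusted p = 0.390) without and 0.72 ± 0.26 (adjusted p = 0.0882) with the block, so the gene did not pass in either fit.

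The other two KDM3 family genes showed no call. Kdm3b was at 129.6 and 144 CPM in WT, 116.9 and 117.9 in UNC0642-treated, 139 and 109 in Setdb1 KO, and 122 and 67.5 CPM in UNC0642-treated Setdb1 KO mESCs. The UNC0642-treated and combined conditions lay below both WT libraries and the blocked log2 fold change in the combined condition was -0.58 ± 0.28 (edgeR, SE, adjusted p = 0.188). An antisense lincRNA, Gm26538, covers 24.6% of the exonic bases of Kdm3b and was not counted separately in the data used here. Jmjd1c, on chr10:67096125-67256326 (plus strand), was at 432 and 256 CPM in WT, 370.0 and 247 in UNC0642-treated, 564 and 274 in Setdb1 KO, and 452 and 152 CPM in UNC0642-treated Setdb1 KO mESCs. Replicate 1 of Jmjd1c was higher in all 4 conditions, by up to 2.97-fold, and every condition overlapped WT.

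Kdm4a was at 78.7 and 90.8 CPM in WT, 63.7 and 107 in UNC0642-treated, 75.3 and 117 in Setdb1 KO, and 51.5 and 91.7 CPM in UNC0642-treated Setdb1 KO mESCs. All conditions overlapped, with replicate 2 the higher in each. The Kdm4a log2 ratio to WT was negative in replicate 1 and positive in replicate 2 in every treated condition. Kdm4c, on chr4:74242497-74405860 (plus strand) and linked to mESC self-renewal, was at 479.5 and 158 CPM in WT, 325 and 187 in UNC0642-treated, 229 and 308 in Setdb1 KO, and 239.6 and 207 CPM in UNC0642-treated Setdb1 KO mESCs. The WT pair alone spanned 3.04-fold and enclosed all 6 treated libraries. Its log2 ratio of Setdb1 KO to WT was -1.07 in replicate 1 and 0.97 in replicate 2, so no direction could be given.

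**Figure D4:**
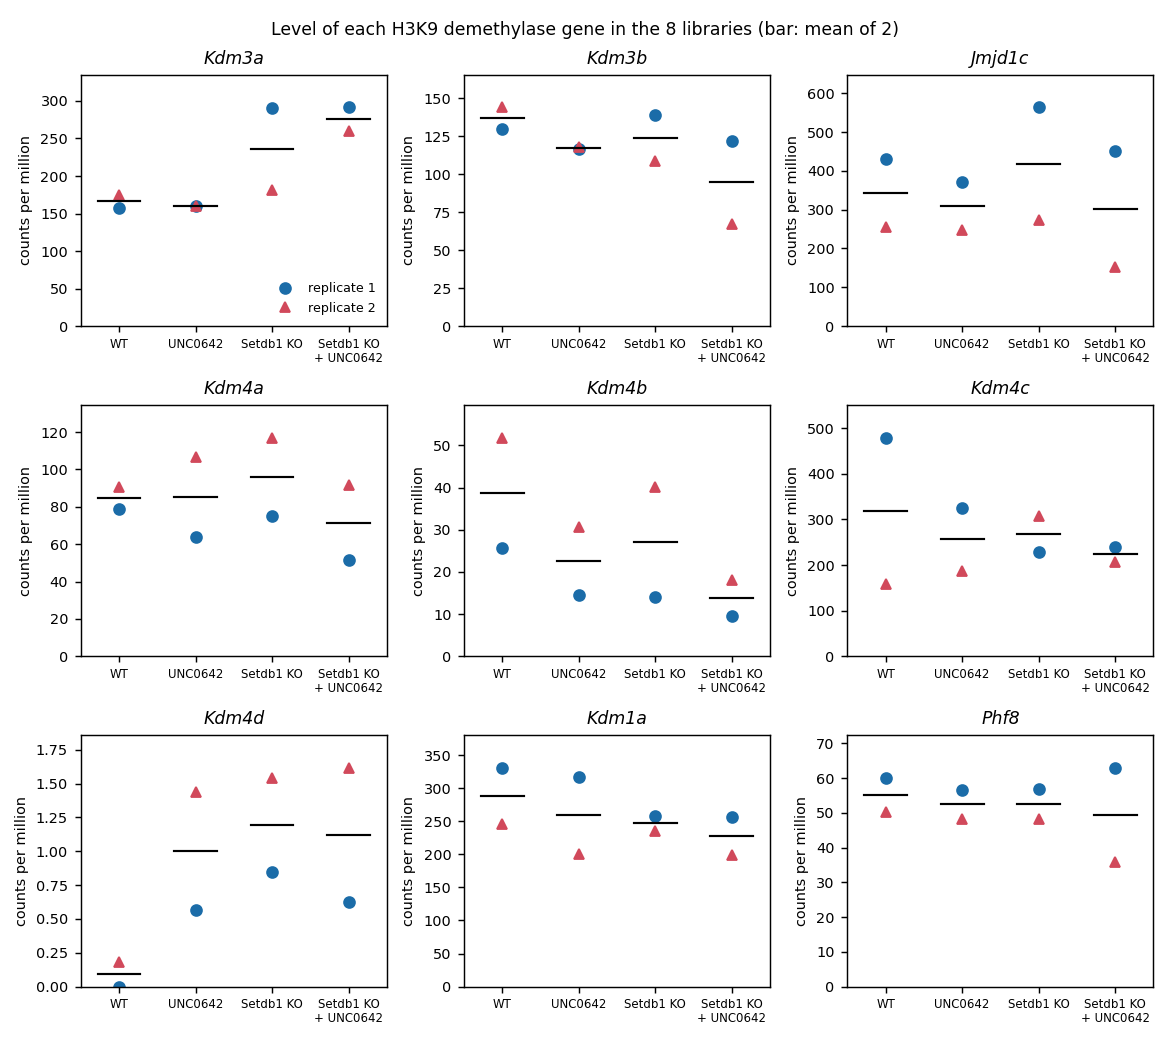
Level of each of the 9 genes (CPM, linear axes from 0) in the 8 libraries, with circles for replicate 1, triangles for replicate 2 and a bar at the mean of each condition. Kdm4d is near 0 in WT and between 0.564 and 1.62 CPM elsewhere, Kdm4b is lowest and Kdm3a highest in UNC0642-treated Setdb1 KO mESCs by their means, and replicate 1 lies above replicate 2 in every condition for Jmjd1c, Kdm1a and Phf8.

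Kdm1a and Phf8 were the steadiest of the 9. Kdm1a, on chr4:136550540-136602723 (minus strand), was at 331 and 246 CPM in WT, 317 and 201 in UNC0642-treated, 258 and 236 in Setdb1 KO, and 257 and 198 CPM in UNC0642-treated Setdb1 KO mESCs. Its highest library was 1.67 times its lowest, the least of the 9 genes, and all conditions overlapped. Phf8, on chrX:151520672-151633859 (plus strand), whose product reads methylated H3K4 and acts on mono- and dimethylated H3K9, was at 60.1 and 50.2 CPM in WT, 56.5 and 48.3 in UNC0642-treated, 56.8 and 48.3 in Setdb1 KO, and 63.0 and 35.9 CPM in UNC0642-treated Setdb1 KO mESCs. The blocked log2 fold changes over WT were between -0.34 ± 0.23 and -0.17 ± 0.23 for Kdm1a and between -0.20 ± 0.25 and -0.07 ± 0.25 for Phf8 (SE). Their levels in bulk RNA cannot tell fewer expressing cells from less RNA per cell.

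LSD1 works in a complex with CoREST and histone deacetylases, and 12 of 14 listed partner genes were tested. This list was also chosen with earlier results of these data known, so its counts are a description and no test. With the block 3 fell and 0 rose in UNC0642-treated Setdb1 KO over WT mESCs (background 7.19% lower), and none was called in the other two conditions or without the block. Rcor2, a CoREST paralogue, changed by -1.73 ± 0.32 (SE, edgeR adjusted p = 0.00931), Phf21a, the H3K4 reader of the complex, by -1.28 ± 0.23 (adjusted p = 0.00843), and Zmym3, a zinc finger partner, by -0.99 ± 0.23 (adjusted p = 0.0232). The median over the 12 was -0.30. Without replicate 2 of UNC0642-treated Setdb1 KO mESCs the 3 became 0, without WT replicate 1 they became 5, and without the others 2 or 3. The calls of Rcor2 and Phf21a held in 7 of these 8 fits each, and that of Zmym3 in 3 (adjusted p up to 0.188). Of 20 other Jumonji C and LSD family genes tested, 1 was called lower with the block in the same comparison, a share under the background of 7.19%. This was Phf2, an H3K9me2 demethylase (-1.21 ± 0.35, adjusted p = 0.0488), and Kdm8 at 1.24 ± 0.45 (adjusted p = 0.0904) did not pass. The Phf2 call held in 2 of the 8 blocked fits with a library left out, both times one of Setdb1 KO mESCs (adjusted p up to 0.323 in the others).

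Among 6 H3K9 methyltransferase genes, the opposite side of the balance, Setdb1 and Ehmt2 fell in UNC0642-treated Setdb1 KO over WT mESCs with the block. Apart from Setdb1, the deleted gene, this is 1 of 5, beside 17.2% of all features called and 7.19% called lower. Ehmt2, which encodes G9a, changed by -1.20 ± 0.28 (SE, edgeR adjusted p = 0.0235) there and by -0.77 ± 0.28 (adjusted p = 0.477) in UNC0642-treated mESCs. The Ehmt2 call was lost without WT replicate 2, without replicate 2 of UNC0642-treated mESCs or without replicate 2 of UNC0642-treated Setdb1 KO mESCs (adjusted p up to 0.218). Of the 6, only Setdb1 was called in Setdb1 KO mESCs. None of the 6 was called without the block.

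Comparisons among the treated conditions gave no call among the 9 genes. For UNC0642-treated Setdb1 KO over Setdb1 KO mESCs edgeR called 0.0% of all features without and 0.129% with the block, and for the same over UNC0642-treated mESCs 1.16% and 4.65%. The former had Kdm4b at a blocked log2 fold change of -0.86 as the smallest p of the 9 (adjusted p = 0.269), and the latter Kdm3a at 0.78 (adjusted p = 0.142). For the interaction of both treatments 0.0% of features were called in either fit. DESeq2 on all 8 libraries called none of the 9 in these 3 comparisons, beside 103, 583 and 1 of all features. At an unadjusted edgeR p under 0.05, 0 of 9 passed in each without the block, beside 744, 1473 and 122 of all 16245 features. With the block 1, 2 and 1 of the 9 passed, beside 1737, 3069 and 379 features. The 1 in the interaction was Kdm4d, which was tested only through its treated libraries. The interaction of Kdm4d had the smallest p, with a blocked log2 value of -3.43 that did not pass (adjusted p = 1.0).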

How the data were processed

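Poly(A) RNA-seq covered 8 mESC libraries, 2 per condition, grouped by their labels. The authors trimmed reads with Trim Galore (0.3.7), mapped them to mm10 with TopHat2 and counted them with TEtranscripts. The authors deposited raw counts, not normalized, for 24062 genes and 1153 transposable element subfamilies. The counting is described as run with default parameters, and which strand setting this gave is not spelled out, so reads of overlapping antisense genes may be included. TEtranscripts may share reads among near-identical copies.

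Features were filtered with filterByExpr (minimum count 10, minimum total 15), scaled by TMM (factors 0.810 to 1.20) and fitted in edgeR 4.0.16 (R 4.3.3, quasi-likelihood, 1 coefficient per condition, 4 residual degrees of freedom, 3 with the block). The edgeR fits were also run on simulated counts. Only genes with a mean above 1 CPM were changed there, so levels as low as those of Kdm4d in WT mESCs were not covered. A replicate difference was built into the simulation, so it cannot show whether the block was needed. Log2 fold changes used a prior count of 0.125. DESeq2 1.42.0 was an alternative. Plots and summaries used Python with numpy, pandas, scipy and matplotlib. A count of 3 was taken as the detection floor, and counting intervals are exact (95%).

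Across 15313 genes, the deviations of replicates from their condition means had correlations between 0.285 and 0.663 in the 6 pairs of conditions, each over 0.1, so the shared replicate numbers of the labels were read as pairs. The replicates are described as 2 biological experiments, with no day or batch named for each library. For the combined condition the labels give 2 days of 4-OHT, whereas the paper states 5 days for this line.

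Gene positions and exon lengths came from GENCODE M21 (GRCm38) and sequences from RefSeq promoters on GRCm38.p6, in which 7 of the 9 genes matched. The 9 genes and all lists were chosen with earlier results of these data known. Named genes are the 9, Setdb1, list members past the threshold (otherwise the 2 with the smallest p), and the 3 genes most like the member of widest range. Cwc15 was named as the neighbour of Kdm4d after its position was seen. Alternatives were DESeq2, RLE and total counts scaling, other filters, thinning, the study's threshold and leaving out each library.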

Additional observations from a re-analysis of the deposited data

How the results depend on the processing

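The count of the 9 genes called was 0 in all 6 comparisons without the block and stayed 0 under DESeq2 without a block, RLE or total counts scaling, no expression filter, genes only, thinning, fits of only the libraries compared, the study's threshold and each library left out. With the replicate block the count became 1 in Setdb1 KO over WT mESCs (Kdm4d, which entered the test through its treated libraries). It became 2 in UNC0642-treated Setdb1 KO over WT mESCs, and both counts were the same in edgeR and DESeq2. Beside these, edgeR called 698 and 2790 of the 16245 features and DESeq2 1359 and 3876. With an unadjusted edgeR p under 0.05 and no block, the count became 1 in each comparison with WT. This was Kdm4d each time, beside 545, 1414 and 2926 features. The block changed no other call of the 9 genes. With the block and each library left out in turn, the counts were 0 to 0 in Setdb1 KO and 0 to 2 in UNC0642-treated Setdb1 KO mESCs. Kdm4d had no value in the combined comparison when only its 4 libraries were fitted, as it failed the filter there. With a library left out without the block, directions turned for several genes, in no comparison in which the gene was called. In UNC0642-treated over WT mESCs the log2 fold changes ran from -0.13 to 0.044 for Kdm3a, -0.47 to 0.27 for Jmjd1c, -0.44 to 0.34 for Kdm4a, -0.89 to 0.70 for Kdm4c, -0.52 to 0.11 for Kdm1a and -0.19 to 0.063 for Phf8. In Setdb1 KO mESCs they ran from -0.33 to 0.71 for Jmjd1c, -0.20 to 0.46 for Kdm4a, -1.49 to 0.062 for Kdm4b, -0.85 to 0.77 for Kdm4c, -0.43 to 0.0042 for Kdm1a and -0.20 to 0.064 for Phf8. In UNC0642-treated Setdb1 KO mESCs they ran from -1.18 to 0.41 for Jmjd1c, -0.72 to 0.11 for Kdm4a, -1.09 to 0.49 for Kdm4c and -0.62 to 0.20 for Phf8. Kdm4a with UNC0642, at 0.0075 as fitted, was also -0.046 with the block, -0.0074 with DESeq2 (-0.063 with a block, -0.0099 on only the libraries compared) and -0.0074 with RLE scaling. The cause was not tested. With 2 replicates per condition and WT replicate 1 among the shallowest libraries, depth limits Kdm4d most.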

Other observations

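Genes of 2-oxoglutarate metabolism, which supplies the cofactor of the Jumonji C enzymes, gave no call. Of 11 tested, 0 passed in any comparison with WT with or without the block, and the smallest p values of the blocked fit in UNC0642-treated Setdb1 KO mESCs were those of Idh3a, a subunit of mitochondrial isocitrate dehydrogenase (log2 fold change -0.81 ± 0.25, SE, edgeR adjusted p = 0.0595), and Got2, an aspartate aminotransferase (-0.67 ± 0.25, adjusted p = 0.101). Their median was -0.27. Of 4 genes reported as targets of Kdm3a or Kdm4c in mESCs 3 matched by symbol and were tested, and 0 passed. Nanog was at 0.49 ± 0.36 (adjusted p = 0.369) and Tcl1 at 0.60 ± 0.39 (adjusted p = 0.308) in the same comparison and fit.

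Of markers of other cell types, 2 of 6 tested fibroblast markers were called by the blocked fit in UNC0642-treated Setdb1 KO over WT mESCs, Lum higher and Pdgfrb lower. Lum had mean levels of 0 CPM in WT and 2.17 CPM in the combined condition. It entered the test only through that condition, so its call gives no support to a change. Of 5 trophectoderm markers 1, Eomes, was lower (log2 fold change -1.77 ± 0.47, SE, edgeR adjusted p = 0.0347). Both counts stood beside 17.2% of all features called in this comparison. None of the 9 mESC, 7 primitive endoderm and 7 germ layer markers was called in a comparison with WT in either fit. The trophectoderm markers summed to between 25.3 and 132 CPM, the primitive endoderm markers to between 11.9 and 70.3 CPM, and the germ layer markers to between 21.7 and 85.6 CPM per library.

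Of the summed length-scaled level of the 9 genes, the KDM4 family made up 40.1% ± 7.09 (SD, n = 2) in WT, 38.9% ± 1.71 in UNC0642-treated, 37.8% ± 11.7 in Setdb1 KO and 34.2% ± 6.83 in UNC0642-treated Setdb1 KO mESCs. The KDM3 family made up 26.8% ± 4.71, 27.6% ± 2.1, 33.1% ± 10.9 and 35.2% ± 5.31 in the same order. With the longest transcript as the length, the KDM4 shares were 33.0%, 31.9%, 31.0% and 28.1%. The KDM3 shares were then 32.3%, 33.1%, 38.7% and 40.2%. Which family was the higher in UNC0642-treated and in Setdb1 KO mESCs thus depends on the length used. These shares were not tested. Within 250 bases before the annotated starts, the hypoxia response cores ACGTG and GCGTG (either strand) were found 4 and 2 times at 1 start of Kdm4c and not at its other start. GCGTG was also found 1 time at a start of Kdm3a, 2 times at a start of Jmjd1c and 1 time at that of Phf8, which held ACGTG 1 time as well, and neither was found at Kdm4a, Kdm4d and Kdm1a. Of 32851 promoter windows of this length, 16.6% held ACGTG and 28.2% held GCGTG. Kdm4b was not matched in that promoter table.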
